A study of Mus musculus with 14 samples.

Results

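Hedgehog signalling was examined through 9 genes in sorted cells of the embryonic mouse skin: the ligand gene Shh, the receptor genes Ptch1, Smo, Boc and Cdon, the decoy receptor gene Hhip and the transcription factor genes Gli1, Gli2 and Gli3. They were taken by name from a table of 26252 genes, and all 9 were found and passed the count filter for testing. Hhip passed it through the placode-enriched libraries alone. The 14 libraries came from dorsal skin epithelium of wild-type (WT) C57BL/6JOlaHsd embryos at embryonic age E14.5. They comprised 7 placode-enriched libraries, from cells sorted as MAdCAM-1 positive, and 7 libraries of interfollicular epithelium (IFE), from MAdCAM-1 negative cells. Each library is a pool of 3 to 4 littermate embryos, and title codes tie the libraries into 7 pairs. No embryo was treated or carried a mutant allele. Both fractions were defined by one surface antigen, so each may hold several kinds of cell.

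In the Hedgehog pathway a secreted ligand binds the membrane protein Ptch1, which otherwise keeps the transducer Smo inactive, and Smo in turn sets the activity of the Gli factors. Boc, Cdon and Gas1 help the ligand to bind, and Hhip captures it at the cell surface. Ptch1, Hhip and Gli1 are transcribed in response to the pathway in many tissues, so their transcripts are widely used as a readout of it. In the developing hair follicle the placode epithelium makes Shh, which acts on epithelium and on the dermis beneath, and the follicle does not grow down without it.

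Of the 9 genes, 7 were higher and 1 was lower in the placode-enriched cells, and 1 did not pass the test (edgeR quasi-likelihood test, paired, adjusted p under 0.05). Over all 15382 genes tested, 15.5% were higher and 15.6% lower, 31.1% in all. The median log2 fold change, placode-enriched over IFE, was 0.62 over the 9 genes and -0.02 over all genes tested. In 6 of the 9 genes the levels of the 2 fractions did not overlap in any library, which held for 14.8% of all genes tested. Hhip, which passed the count filter only through its placode-enriched libraries, is among the 7 higher genes and among these 6. Levels are given as CPM, counts scaled to a library of fixed size, and they are averages over sorted cells: fewer cells of a type and less RNA per cell cannot be told apart.

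**Figure D1:**
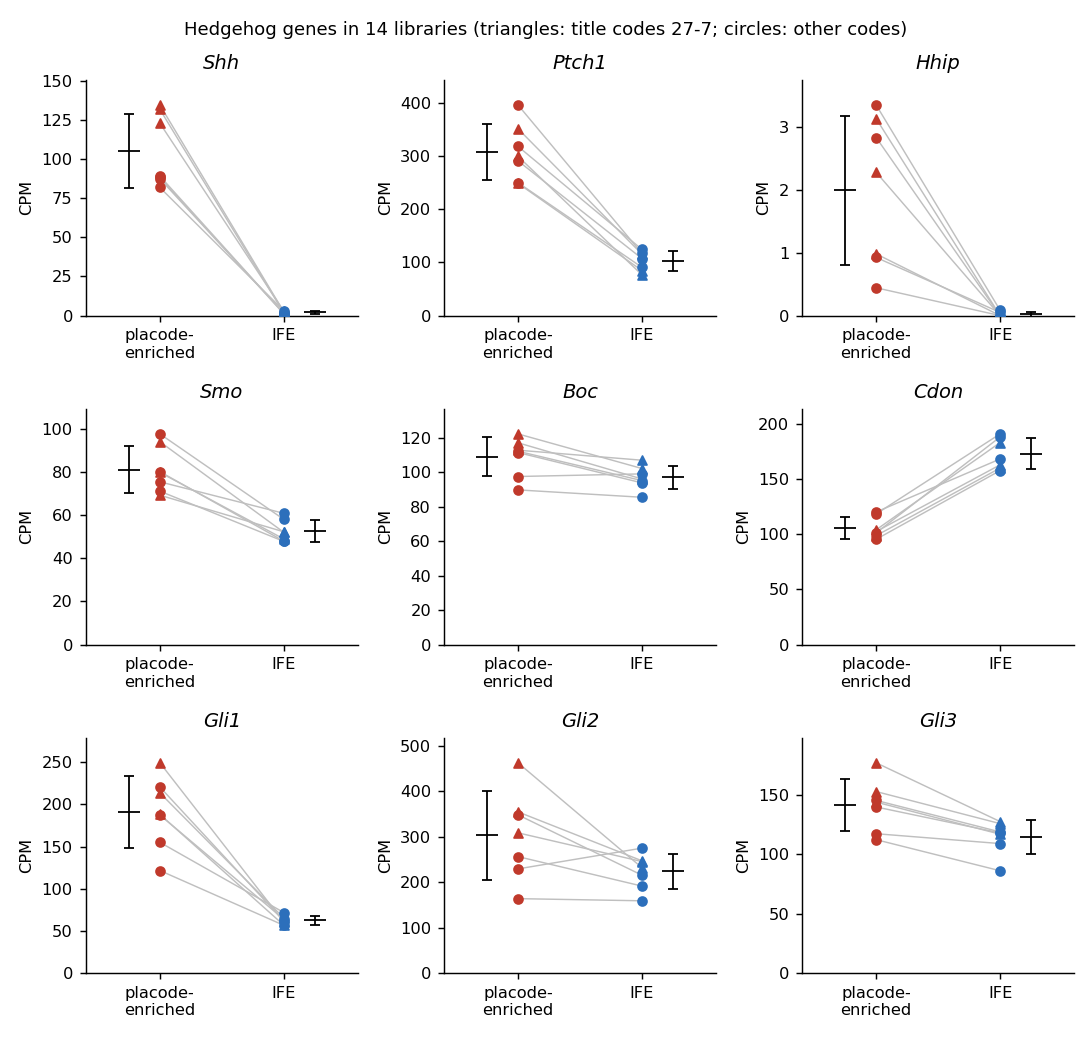
CPM (vertical axes, linear from 0) of the 9 genes in each placode-enriched and each IFE library, with grey lines joining the libraries of a pair, and mean ± SD beside each group (n = 7). Shh, Ptch1, Hhip, Smo and Gli1 lie wholly above their IFE values and Cdon wholly below, whereas Boc, Gli2 and Gli3 overlap.

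Library totals lay between 23.8 and 49.5 mega counts, and 18185 to 21670 genes had a count in each library. The fractions separated along the first principal component, which took 46.7% of the variance in log2 CPM. Both fractions carried the basal epithelial genes, with Krt14 at 1467 ± 133 CPM in placode-enriched libraries, against 1284 ± 111 CPM in IFE ones (SD over 7 libraries each). Madcam1, which encodes the protein of the sort, stood at 47.9 ± 12.1 CPM in placode-enriched libraries against 0.561 ± 0.367 CPM in IFE ones, and it checks the sort only. All 12 placode markers were higher in the placode-enriched cells, but 1 of them is Madcam1 itself. Their sums, Madcam1 included, were 2151 to 2646 CPM in placode-enriched libraries and 500.4 to 568 CPM in IFE ones. Of 9 basal markers 3 were higher and 5 lower, with sums of 5889 to 7420 CPM in placode-enriched libraries and 7296 to 8939 CPM in IFE ones. The fractions differed in other cells too. Of 11 suprabasal and periderm markers 2 were higher and 9 lower, and their sum was 228 to 487 CPM in placode-enriched libraries and 2928 to 4556 CPM in IFE ones. All 8 tested melanoblast markers were lower, and the sum over 9 was 8.30 to 14.54 CPM in placode-enriched libraries and 124 to 222 CPM in IFE ones. Of 5 tested nerve and Schwann cell markers 3 were lower, and the sum over 7 was 81.7 to 111 CPM in placode-enriched libraries and 144 to 157 CPM in IFE ones. Among the lower markers of these 2 lists, Dct, Tyr, Mlana, Fabp7 and Tubb3 had 65, 83, 33, 7 and 58 counts in placode-enriched libraries. These genes passed the count filter through their IFE libraries, so their calls are no independent support. Of 2 tested endothelial and blood markers 1 was higher, and the sum over 8 was 3.57 to 10.4 CPM in placode-enriched libraries and 3.04 to 6.78 CPM in IFE ones, with Hbb-bt at 0 in all placode-enriched libraries and Cdh5 at 0 in all IFE ones. The higher one was Pecam1 (1.83 CPM in placode-enriched against 0.493 CPM in IFE libraries), which passed the count filter through its placode-enriched libraries. Most of the sum was Cd68 (5.48 against 4.27 CPM), which did not pass the test, so the sum mainly follows that gene. The part of these other cells in the differences below was not tested.

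Shh, which encodes the ligand (ENSMUSG00000002633; GRCm38, chromosome 5, 28456815 to 28467256, minus strand), was abundant in the placode-enriched cells and low in IFE cells. Its lowest, median and highest levels were 81.9, 89.2 and 135 CPM in placode-enriched libraries, against 1.14, 1.72 and 3.12 CPM in IFE libraries. No IFE library came near a placode-enriched one. The log2 fold change was 5.74 ± 0.17 (SE, approximate throughout; adjusted p = 8.75e-11 by edgeR), a 53.5-fold difference, and single pairs gave log2 differences of 4.69 to 6.21. The IFE libraries were not at 0, since they held 34 to 94 Shh counts each. Within a pair, the IFE level of Shh was 1.29% to 3.81% of the placode-enriched level. Among the 12 placode markers that share was lowest in Madcam1, at 0.432% to 2.33%, and highest in Sostdc1, at 45.9% to 55.6%. Lhx2 stood at 1.76% to 9.33%, and the ectodysplasin receptor gene Edar at 12.4% to 15.9%. How far the IFE level of Shh comes from placode cells that escaped the sort was not tested. The transcripts 9530036O11Rik and Gm26894, annotated on the opposite strand, share exonic bases with Shh, and whether the counting used strand is not given in the sources used here. In all they had 149 and 236 counts in placode-enriched libraries, against 14 and 7 counts in IFE libraries. Gli1 shares exonic bases with Arhgap9 and Gli3 with Gm6556 in the same way, with 127 and 224 counts of these in placode-enriched libraries, against 77 and 251 counts in IFE libraries. Gm47200 overlaps Gli1 and Gm27820 overlaps Hhip likewise, and neither was analysed here.

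The Shh levels of the placode-enriched libraries fell into 2 clusters. The 3 pairs whose title codes start with 27-7 stood at 123 to 135 CPM, and the 4 others at 81.9 to 89.2 CPM. An exact two-sided permutation test of 3 against 4 libraries gave p = 0.0286, the smallest value it allows, and 0.411 after adjustment over the 18 such comparisons made (9 genes in 2 fractions). In the IFE libraries the sets overlapped, at 1.72 to 2.83 CPM for the 27-7 codes and 1.14 to 3.12 CPM for the others. Within each set the difference between the fractions was of like size on the log2 scale, 5.82 in the 27-7 pairs and 5.68 in the other pairs. Boc was the one other gene of the 9 whose sets did not overlap in the placode-enriched libraries, at 113 to 122 CPM for the 27-7 codes and 89.8 to 112 CPM for the others (exact permutation p = 0.114, adjusted 0.411). The share of all genes tested whose sets do not overlap is not given here, so the split cannot be read as particular to Shh and Boc. What the codes stand for is not stated in the labels.

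Ptch1, the receptor that binds the ligand and restrains Smo (ENSMUSG00000021466; chromosome 13, 63508328 to 63573598, minus strand), was 3.01-fold higher in the placode-enriched cells. Its lowest, median and highest levels were 248, 299 and 396 CPM in placode-enriched libraries, against 76.5, 107 and 124 CPM in IFE libraries. The lowest placode-enriched library thus lay above the highest IFE library, and the log2 fold change was 1.59 ± 0.08 (edgeR adjusted p = 7.91e-09). Unlike Shh, Ptch1 was well measured in IFE cells, where each library held 2120 to 4601 counts of it. Within pairs the IFE level was 25.6% to 39.1% of the placode-enriched one. Ptch1 and Smo did not differ to the same degree: the log2 ratio of Ptch1 over Smo was higher in placode-enriched libraries by 0.97 ± 0.17 (SD over 7 pairs; 7 of 7 pairs; exact two-sided sign-flip permutation p = 0.0156, the smallest that 7 pairs allow, 0.0195 adjusted over 5 ratios).

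Smo, the transducer (ENSMUSG00000001761; chromosome 6, 29735503 to 29761365, plus strand), showed a smaller difference. Its lowest, median and highest levels were 69.3, 79.9 and 97.8 CPM in placode-enriched libraries, against 47.9, 52.1 and 60.9 CPM in IFE libraries. The groups did not overlap, and 7 of 7 pairs were higher. The log2 fold change was 0.62 ± 0.08 (edgeR adjusted p = 5.21e-05), a 1.54-fold difference.

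Hhip, the decoy receptor (ENSMUSG00000064325; chromosome 8, 79965851 to 80058006, minus strand), was scarce in the placode-enriched cells and almost without counts in IFE cells. The lowest, median and highest levels were 0.442, 2.27 and 3.34 CPM in placode-enriched libraries. In the IFE libraries 5 of 7 had no count, the library with code 17-5 had 3 (0.0856 CPM) and that with code 1-6-3 had 2. In all, Hhip had 480 counts in placode-enriched and 5 counts in IFE libraries, a ratio of 96.3 after scaling by library size (exact 95% interval 41.0 to 298, which covers counting error only). The fitted log2 fold change of 6.42 ± 0.75 (edgeR adjusted p = 1.34e-05) depends on the prior count and is no bound, and it was 7.12 without the 1-6-3 pair and 6.98 without the 17-5 pair. The gene passed the filter used here through its placode-enriched libraries alone. It was not tested under the stricter filter of 1 CPM in 7 libraries.

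Boc and Cdon, related co-receptors that bind the ligand together with Ptch1, did not move alike. Cdon (ENSMUSG00000038119; chromosome 9, 35421128 to 35507652, plus strand) was the one gene of the 9 that fell in the placode-enriched cells. Its lowest, median and highest levels were 95.5, 103 and 120 CPM in placode-enriched libraries, against 158, 168 and 191 CPM in IFE libraries. The groups did not overlap, and the log2 fold change was -0.71 ± 0.07 (edgeR adjusted p = 2.47e-06), with single pairs between -0.89 and -0.49. Boc (ENSMUSG00000022687; chromosome 16, 44485049 to 44558897, minus strand) had a lowest, median and highest level of 89.8, 112 and 122 CPM in placode-enriched libraries, against 85.5, 96.2 and 107 CPM in IFE libraries. These groups overlapped. Its log2 fold change was 0.17 ± 0.07 with 6 of 7 pairs higher, and it missed the threshold (edgeR adjusted p = 0.0764), which it passed with upper-quartile scaling (0.0481) and with DESeq2 (0.0386). The log2 ratio of Cdon over Boc was lower in placode-enriched libraries by a mean difference of -0.88 ± 0.12 (SD, 0 of 7 pairs higher; exact sign-flip permutation p = 0.0156, adjusted 0.0195).

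The start regions of Ptch1 and Cdon are shown because these receptor genes moved in opposite directions. They are the RefSeq promoter windows of GRCm38.p6, 250 bases before to 50 after the listed start, 5′ to 3′ on the gene's strand, with each CG dinucleotide in capitals. Both windows lie inside the gene spans given above, which reach farther upstream, so neither is at the outermost annotated start.
Ptch1, chr13:63565686-63565985, minus strand: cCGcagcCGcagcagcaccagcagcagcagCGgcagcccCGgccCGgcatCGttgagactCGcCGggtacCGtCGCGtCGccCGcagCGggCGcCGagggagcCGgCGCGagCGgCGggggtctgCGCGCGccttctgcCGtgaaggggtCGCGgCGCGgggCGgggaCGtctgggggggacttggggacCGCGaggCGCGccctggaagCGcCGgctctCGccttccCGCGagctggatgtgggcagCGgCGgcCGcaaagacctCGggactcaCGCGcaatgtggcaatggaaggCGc
Cdon, chr9:35451826-35452125, plus strand: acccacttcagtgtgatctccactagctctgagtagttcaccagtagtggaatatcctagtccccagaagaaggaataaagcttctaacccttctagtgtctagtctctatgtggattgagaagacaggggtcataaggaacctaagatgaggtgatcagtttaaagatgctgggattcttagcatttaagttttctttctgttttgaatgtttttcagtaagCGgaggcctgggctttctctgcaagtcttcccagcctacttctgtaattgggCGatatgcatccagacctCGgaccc

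The Ptch1 window held 47 CG dinucleotides and 76.3% G and C, and the Cdon window held 3 and 44.7%. The median over 32851 promoter windows was 7 CG dinucleotides and 52.7%. Windows were found for 6 of the 9 genes (Ptch1, Gli2, Gli3, Hhip, Smo and Cdon), and those other than Cdon had 17 to 47 CG dinucleotides. The Gli consensus GACCACCCA was searched on both strands and occurred in 0 of the 6 windows, as did its core CCACCCA, which is part of it. Of all windows, 0.253% held the consensus and 9.30% the core.

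The Gli genes encode the transcription factors of the pathway: Gli1 acts as an activator, Gli2 mainly as an activator and Gli3 mainly as a repressor. Gli1 (ENSMUSG00000025407; chromosome 10, 127329882 to 127341974, minus strand) rose by a fold close to that of Ptch1. Its lowest, median and highest levels were 122, 188 and 249 CPM in placode-enriched libraries, against 56.9, 62.1 and 72.1 CPM in IFE libraries. The groups did not overlap. The log2 fold change was 1.58 ± 0.11 (edgeR adjusted p = 1.80e-07), a 2.99-fold difference. Placode-enriched libraries varied more among themselves in Gli1, with a coefficient of variation of 22.3%, against 8.39% in IFE libraries.

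Gli2 (ENSMUSG00000048402; chromosome 1, 118834132 to 119053619, minus strand) had a lowest, median and highest level of 164, 309 and 462 CPM in placode-enriched libraries, against 159, 232 and 275 CPM in IFE libraries. The ranges overlapped, and the pair with code 18-5 went the other way, at 229 CPM in the placode-enriched and 275 CPM in the IFE library. The log2 fold change of 0.39 ± 0.12 passed narrowly (edgeR adjusted p = 0.027). It did not pass without the pair block (0.0643) or in the 4 pairs with other codes (0.333, log2 fold change 0.22), and it lost the threshold without pair 2, 4, 5 or 6, numbered in the order of the labels (0.058, 0.0809, 0.0618 and 0.0739). In the 27-7 pairs alone it was 0.62 (edgeR adjusted p = 0.0273).

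Gli3 (ENSMUSG00000021318; chromosome 13, 15463235 to 15730026, plus strand) had a lowest, median and highest level of 112, 144 and 177 CPM in placode-enriched libraries, against 86.1, 118 and 127 CPM in IFE libraries. The groups overlapped, but the placode-enriched library was the higher one in 7 of 7 pairs. The log2 fold change was 0.30 ± 0.06 (edgeR adjusted p = 0.00321), a 1.23-fold difference. It did not pass within the 27-7 pairs (0.35, edgeR adjusted p = 0.0618) or the other pairs (0.25, 0.0966) alone. Of the genes with larger differences, Ptch1 stood at 1.71 in the 27-7 pairs and 1.503 in the others on the log2 scale, Gli1 at 1.82 and 1.396, Smo at 0.66 and 0.59, and Cdon at -0.72 and -0.70. The fitted value of Hhip was 9.13 ± 3.66 in the 27-7 pairs, whose IFE libraries had no count, and 5.54 ± 0.93 in the others.

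**Figure D2:**
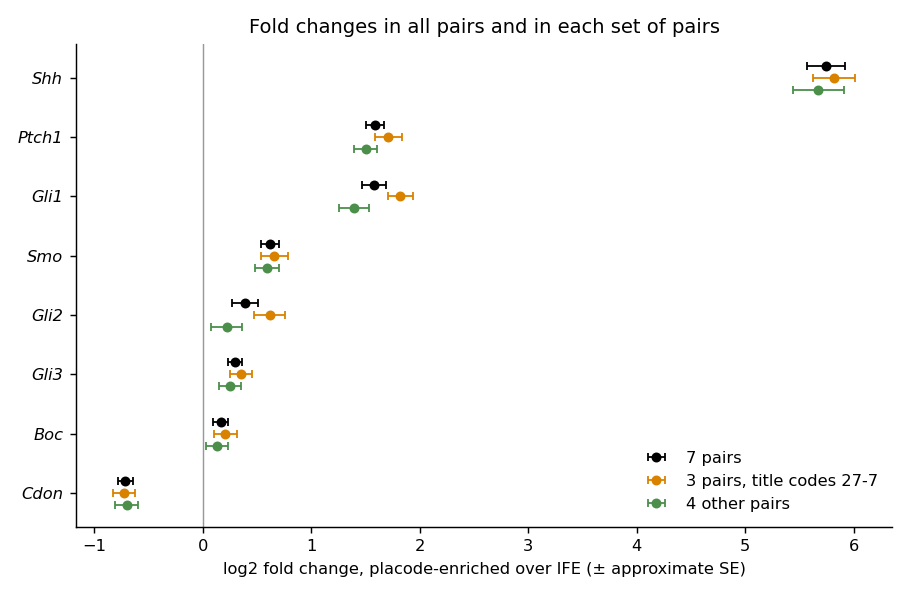
Log2 fold change, placode-enriched over IFE, with approximate SE (horizontal axis) for 8 of the genes, in all 7 pairs, in the 3 pairs with 27-7 codes and in the 4 other pairs. Shh stands at 5.74 and Cdon at -0.71 in all pairs, and the 2 sets differ most visibly for Gli1 and Gli2, a difference that was not tested. Hhip is left out because its IFE libraries were nearly without counts.

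The balance of the Gli genes differed between the fractions. It was measured in TPM, a scale that divides counts by exon length before scaling to a fixed total. Gli1 made up 39.6% ± 2.61 of the summed Gli level in placode-enriched libraries and 22.2% ± 2.45 in IFE libraries (SD, n = 7 each), higher in 7 of 7 pairs. Gli2 made up 44.8% ± 3.68 in placode-enriched libraries and 56.8% ± 2.70 in IFE libraries, higher in 0 of 7 pairs. Gli3 made up 15.6% ± 2.58 in placode-enriched libraries and 20.97% ± 1.37 in IFE libraries, higher in 1 of 7 pairs. Measured as log2 ratios within a library, Gli1 over Gli2 was higher by 1.19 ± 0.14 and Gli1 over Gli3 by 1.28 ± 0.36 in the placode-enriched libraries (SD over 7 pairs; each with exact sign-flip permutation p = 0.0156, adjusted 0.0195). Gli2 over Gli3 differed by 0.09 ± 0.41, with 5 of 7 pairs higher, less than the spread between pairs (exact sign-flip permutation p = 0.547).

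**Figure D3:**
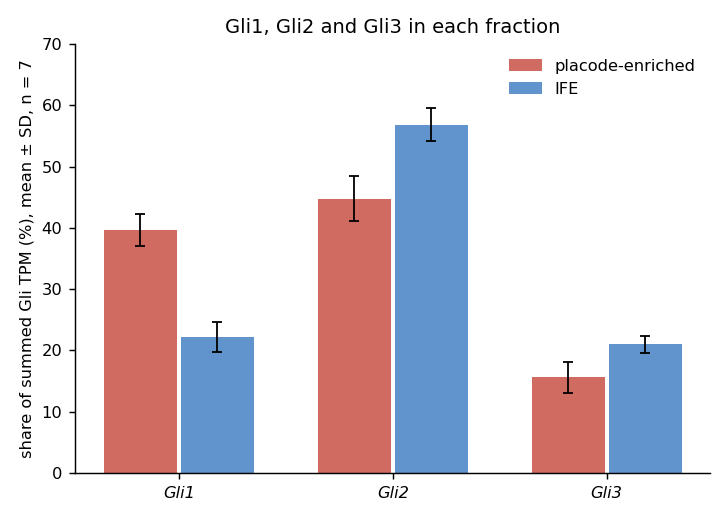
Share of Gli1, Gli2 and Gli3 in their summed TPM (vertical axis, percent) in placode-enriched and IFE libraries; bars are means and error bars SD over 7 libraries. The Gli1 share is 39.6% in placode-enriched and 22.2% in IFE libraries, and the Gli2 and Gli3 shares are smaller in the placode-enriched ones.

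On the TPM scale, which allows levels of different genes to be compared, the order of the genes was not the same in both fractions. In placode-enriched libraries Gli2 (111 ± 31.5 TPM), Gli1 (96.9 ± 21.02) and Shh (93.7 ± 21.5) led, and their ranges overlapped. The Shh range also reached into that of Boc. Boc (62.2 ± 7.76) and Ptch1 (55.2 ± 11.1) followed, overlapping each other, and Gli3 (37.2 ± 5.13), Smo (36.4 ± 3.16) and Cdon (34.9 ± 4.19) could not be ordered beyond their spread. Hhip stood far below at 0.567 ± 0.361 TPM. In IFE libraries Gli2 led (78.8 ± 16.3 TPM), though its range overlapped that of Cdon (54.2 ± 7.21), which in turn overlapped Boc (53.0 ± 9.58). Gli1 (30.2 ± 3.07), Gli3 (29.0 ± 6.01), Smo (22.5 ± 2.52) and Ptch1 (17.2 ± 2.38) followed, each overlapping its neighbour, and Shh stood at 1.70 ± 0.598 TPM, below every value of Ptch1. Some neighbours in the placode-enriched order change places with the length of the longest transcript in place of all exons (Gli1 before Gli2, Ptch1 before Boc and Smo before Gli3), and in IFE libraries none does.

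**Figure D4:**
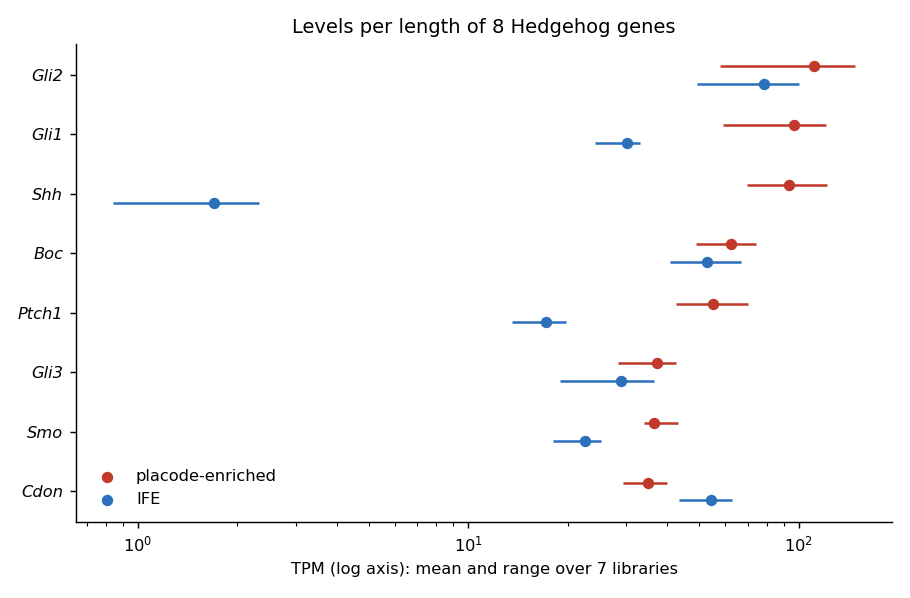
Level per exon length (horizontal log axis, TPM) of 8 genes in placode-enriched and IFE libraries; points are means and lines the range over 7 libraries. Shh is among the highest in placode-enriched libraries (93.7 TPM) and the lowest of the 8 in IFE ones (1.70 TPM), while Cdon is the one gene whose IFE range lies wholly above. Hhip is not drawn because 5 IFE libraries were at 0.

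Relations of Shh to the other 8 genes across libraries were computed in both fractions. Those of the placode-enriched libraries are not given, because Shh fell into the 2 clusters above and a pooled correlation would mix them; they count in the adjustment only. In the 7 IFE libraries no relation passed. Pearson's r lay between -0.58 and -0.28 and Spearman's rho between -0.61 and 0 (exact permutation p from 0.185 to 0.558 and from 0.167 to 1, smallest adjusted values 0.542 and 0.457 over 16 relations computed). Without the 2 libraries farthest from the Shh median, r ranged from -0.95 to 0.71.

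Genes of the same pathway that belong to other steps were read from 4 lists. For comparison, 15.5% of all genes tested were higher and 15.6% lower. Among genes that make or release Hedgehog ligands, 4 of 10 could be tested, of which 3 were higher and 1 did not pass, with a median log2 fold change of 0.73. Scube1, which belongs to a family of secreted proteins that help Hedgehog leave the cell, stood at 211 ± 60.5 CPM in placode-enriched libraries against 30.7 ± 7.31 CPM in IFE ones, 2.77 ± 0.11 on the log2 scale (edgeR adjusted p = 9.52e-10). Disp1, the transporter that releases the ligand, rose by 0.90 ± 0.09 on the log2 scale, and Scube3 by 0.56 ± 0.07. Hhat, the enzyme that attaches palmitate to the ligand, had 7.91 CPM in placode-enriched libraries against 6.03 CPM in IFE ones and missed the threshold (edgeR adjusted p = 0.0696). The other 2 Hedgehog ligand genes were too low to be tested: Ihh had 24 counts in placode-enriched and 14 in IFE libraries, and Dhh had 3 counts in placode-enriched and none in IFE libraries.

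Among the other receptors and co-receptors, 4 of 6 could be tested, of which 2 were higher, 1 was lower and 1 did not pass (median 0.27 on the log2 scale). The shares over all genes tested were 15.5% higher and 15.6% lower. Gas1, the third co-receptor, fell as Cdon did, to 235 ± 36.8 CPM in placode-enriched, against 335 ± 53.5 CPM in IFE libraries (log2 fold change -0.51 ± 0.09; edgeR adjusted p = 0.000501; 0 of 7 pairs higher), although its groups overlapped. Gpc4 and Gpc3, which encode glypicans of the cell surface, rose. Gpc4 stood at 182 ± 39.9 CPM in placode-enriched libraries against 72.8 ± 9.69 CPM in IFE ones (1.30 ± 0.11 on the log2 scale), without overlap, and Gpc3 differed by 0.25 ± 0.07.

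Of 33 genes of intracellular transduction, all tested, 12 were higher, 1 was lower and 20 did not pass, with a median log2 fold change of 0.14. Over all genes tested 4786 of 15382 passed, 31.1%, and the median was -0.02. Sufu, which holds the Gli proteins inactive, stood at 59.1 ± 7.35 CPM in placode-enriched libraries against 54.2 ± 7.89 CPM in IFE ones (edgeR adjusted p = 0.314; named after its value was seen). The largest differences were those of Stk36 (1.34 ± 0.13), a kinase related to the fly gene fused, Ift122 (0.79 ± 0.09) and Dync2h1 (0.63 ± 0.11), which serve transport in the primary cilium, and Gpr161 (0.49 ± 0.08), a ciliary receptor that restrains the pathway. Prkaca, a catalytic subunit of protein kinase A, was the 1 gene that fell (-0.37 ± 0.08), and was named after its value was seen.

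Of 23 genes reported as Hedgehog targets, 14 were tested (Spp1 was not used here), of which 11 were higher, 2 lower and 1 did not pass, with a median log2 fold change of 0.93. The shares over all genes tested were 15.5% higher and 15.6% lower. Hhip, which passed the count filter only through its placode-enriched libraries, is among the 11 and was described above. Nrp2, a semaphorin and VEGF receptor, stood at 118 ± 20.3 CPM in placode-enriched libraries against 3.20 ± 0.745 CPM in IFE ones (log2 fold change 5.20 ± 0.17), and Bcl2, an inhibitor of apoptosis, at 83.6 ± 9.32 CPM in placode-enriched libraries against 27.5 ± 3.33 CPM in IFE ones (1.61 ± 0.08). Sox9, a transcription factor of hair follicle progenitors, stood at 131 ± 26.8 CPM in placode-enriched libraries against 44.4 ± 9.10 CPM in IFE ones (1.56 ± 0.13). The 2 that fell, named after their values were seen, were the cell cycle genes Ccne1 (-0.36 ± 0.09) and Cdk6 (-0.34 ± 0.08). Targets known from mesenchyme had few counts (also named after their values were seen): Foxf1 had 5 counts in placode-enriched and 3 in IFE libraries, and Foxf2 had 1 in placode-enriched and 3 in IFE libraries.

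**Figure D5:**
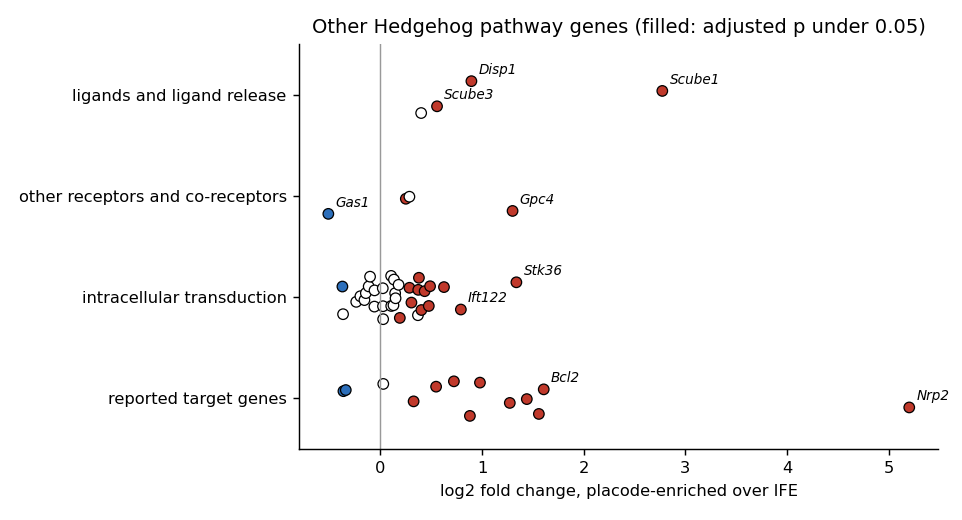
Log2 fold change, placode-enriched over IFE (horizontal axis), of the tested genes of 4 pathway lists without Hhip; filled points passed the test, red higher and blue lower in placode-enriched cells. Scube1 (2.77) and Nrp2 (5.20) stand apart to the right, and most transduction genes lie near 0.

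Dermal cells also express Ptch1 and Gli1, so dermal markers were read beside them. Of 13 that could be tested, 4 rose, 3 fell and 6 missed the threshold, where 15.5% of all genes tested were higher and 15.6% lower. The sum over 19 markers was 1400 to 2215 CPM in placode-enriched libraries and 1412 to 1758 CPM in IFE ones, higher in 6 of 7 pairs. Most of this sum came from Postn (1042 ± 192 CPM in placode-enriched libraries against 744 ± 82.5 CPM in IFE ones), Dcn and Gas1. It therefore mainly follows these genes and is no measure of the number of dermal cells. The 4 that rose were Sox2 (3.28 ± 1.05 CPM in placode-enriched libraries against 0.289 ± 0.164 CPM in IFE ones; 3.58 ± 0.41 on the log2 scale), Col1a2 (1.254 ± 0.09), Dcn (498 ± 79.1 CPM in placode-enriched libraries against 258 ± 24.2 CPM in IFE ones; 0.94 ± 0.10) and Postn (0.47 ± 0.10). Of these, Sox2 passed the count filter through its placode-enriched libraries. The 3 that fell were Col1a1 (-2.49 ± 0.85), Vim (-1.17 ± 0.10) and Gas1. The 6 markers not tested had few counts. Twist1 and Prrx1 had none in any placode-enriched library, and Twist2 had 1, against 75, 78 and 42 counts in IFE libraries. Foxd1 and Sox18 had 1 and 13 in placode-enriched libraries, against 11 and 32 in IFE ones. Dpt went the other way, with 16 in placode-enriched libraries against 1 in IFE ones. Of those that missed the threshold, Cxcl12 came closest (1.59 ± 0.58 on the log2 scale, 7 of 7 pairs higher, edgeR adjusted p = 0.0525). Pdgfra had 109 counts in placode-enriched libraries, against 99 in IFE ones. The part of dermal cells in the Ptch1 and Gli1 differences was not tested.

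The genes whose profiles lay closest to those of Shh, Ptch1 and Gli1 were found by the root mean square difference of log2 CPM over 14 libraries, after each gene was centred on its own mean, among 12961 named genes. Closest to Shh were Nrp2 (0.514), Gad1 (0.555), the gene of a GABA-synthesising enzyme, and Wif1 (0.617), a secreted Wnt inhibitor. Gad1 was near 0 in IFE libraries (0.028 CPM) and passed the count filter through its placode-enriched libraries alone. Its fitted log2 fold change was 7.31 ± 0.50, against 5.74 for Shh, so its rank here depends on the prior count of 2 in log2 CPM. Closest to Ptch1 were Sox9 (0.172), Bcar3 (0.185) and Plod1 (0.187), a collagen lysyl hydroxylase gene. Closest to Gli1 were Trp73 (0.156), a member of the p53 family, Ctxn1 (0.177) and Sh3bp4 (0.184). The measure is dominated by the difference between the fractions, which all of these genes share.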

How the data were processed

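The authors deposited a table of raw read counts per Ensembl gene for 14 libraries, as its whole numbers and unequal totals show. The submitters' processing notes name the builds GRCm38 and mm10 and, among tools, HTSeq, STAR (version 1.5 in their list), Trimmomatic, MultiQC, FastQC and bcl2fastq 2.17.1.14. Neither the annotation release nor how strand and duplicate reads were handled is given in these sources. Per the labels' protocols, libraries were made from total RNA with the Ovation SoLo kit.

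Symbols, coordinates and lengths came from GENCODE M21 (GRCm38): 25949 of 26252 identifiers matched, and the others held 0.436% of counts. Counts were scaled by TMM, filtered with filterByExpr (15382 genes kept) and tested with edgeR 4.0.16 (R 4.3.3), fraction plus pair, robust quasi-likelihood, Benjamini-Hochberg over all genes. The unshrunk coefficient over the square root of F gave an approximate SE. For CPM, totals were TMM-scaled, log2 CPM had a prior count of 2 and fold changes one of 0.125. Columns left unused numbered 0. The edgeR step was tested on simulated data.

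The design text names pairs and the title codes are shared by both libraries of one, so the pair is a block. Deviations from fraction means correlated by 0.055 on average within a pair (-0.132 to 0.195; over 0.1 in 2 of 7). What separates the pools beyond the litter is not stated, and p-values measure only how far they spread, part of which may be technical.

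The members and lists were chosen with earlier results of these data known. Named pathway genes are up to 4 per list past the threshold with the largest fold and at least 1 CPM, and any others were named after their values were seen. Alternatives were other scalings and filters, DESeq2 1.42.0, limma-voom (limma 3.58.1), no block, each pair left out and each set of codes alone. A gene of the lists is not reported here, and its lists are counted without it. The length of the longest transcript was chosen after seeing the data. Tables and figures used Python 3.11.15, pandas 2.3.3, scipy 1.17.1 and matplotlib 3.10.9.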

Additional observations from a re-analysis of the deposited data

How the results depend on the processing

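Each of the 9 genes kept its direction under every alternative in which it was tested, and Hhip was not tested with the filter of 1 CPM in 7 libraries. With no replicate block, Gli2 stood at 0.44 on the log2 scale (adjusted p = 0.0643 by edgeR), and the block changed no other call among the 9. With the 4 other pairs alone Gli2 was 0.22 and Gli3 0.25, and with the 27-7 pairs alone Gli3 was 0.35, none of which passed; the cause was not tested. Boc passed with upper-quartile scaling (0.18) and DESeq2 (0.17), likewise untested as to cause. Leaving out 1 pair at a time moved Gli2 between 0.29 and 0.50, and 6 to 7 of the 9 genes were called higher. Over all genes, those called higher then ran from 2037 of 15372 tested (without pair 4) to 2513 of 15424 (without pair 3). The count over all genes was 4786, with 2331 in the 27-7 pairs and 3087 in the other pairs alone. Of 265 values recomputed, 249 were counted as keeping their direction and side of the threshold, or roughly their size. These 249 include the number of the 9 genes called higher, which ran from 5 (4 other pairs alone) to 8 (upper-quartile scaling and DESeq2). Over all genes, 1547 of 15487 tested were called higher in the 4 other pairs alone. That count was 2499 of 15382 with upper-quartile scaling and 2742 of 15382 with DESeq2. By the longest transcript, Gli1 held 43.0% of the summed Gli level in placode-enriched and 24.7% in IFE libraries. The fitted value of Hhip lay between 5.54 and 9.13, both from the sets of pairs alone. Depth limits Hhip, Ihh and Dhh, which had few counts.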
